A study of Homo sapiens with 16 samples.

Results

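The 10 genes followed here encode enzymes that make serine, one-carbon units, asparagine and cysteine. They are PHGDH, PSAT1 and PSPH of serine synthesis, SHMT1, SHMT2, MTHFD2 and ALDH1L2 of folate-bound one-carbon metabolism, the asparagine synthetase ASNS, and CBS and CTH of transsulfuration. They were chosen by name, with earlier results of these data known, as probe sets annotated to exactly 1 of these symbols. All 10 were found among the 19775 genes tested. Together they had 23 probe sets. Each gene was read on its brightest probe set (the highest mean over the 16 arrays), and the other 13 probe sets are given beside it.

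The 4 groups were MDA-MB-231 cells given 50 mM 2-deoxy-glucose (2DG) for 24 h, MDA-MB-231 cells given water as vehicle, MCF10A cells given 50 mM 2DG for 24 h, and MCF10A cells given water, with 4 biological replicates and 1 Affymetrix array each. MDA-MB-231 is a human breast cancer line and MCF10A an immortalized, non-tumorigenic human mammary epithelial line, and 2DG is a glucose analogue that blocks glycolysis. All groups had 17.5 mM glucose. The media differed otherwise (fetal bovine serum for MDA-MB-231; for MCF10A horse serum with hydrocortisone, cholera toxin, insulin and a growth factor, EGF), so line and medium cannot be told apart. In bulk RNA, fewer cells of a kind and less RNA per cell cannot be told apart either. Each line stands for itself alone, and whether the replicates came from separate cultures is stated only by the words biological and independent. Values are deposited log2 RMA values (probe set summaries after background correction and quantile normalization), and every change is a difference of log2 values.

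Serine is built from the glycolytic intermediate 3-phosphoglycerate by PHGDH, PSAT1 and PSPH in that order. SHMT enzymes move a carbon from serine to folate, giving glycine, and mitochondrial MTHFD2 and ALDH1L2 oxidize the folate-bound carbon further. Serine also joins homocysteine through CBS, and CTH splits the product to release cysteine, the limiting amino acid for glutathione. Many of these genes are known targets of ATF4, the transcription factor of the amino acid and endoplasmic reticulum stress responses, and ASNS is its classical target.

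Epithelial markers matched the labels of the lines, and mesenchymal markers did so in part. All 5 measured epithelial markers (KRT5, KRT14, CDH1, LAMB3 and ITGB4) were lower in MDA-MB-231 than in MCF10A on vehicle, with a median difference of -6.285, and the E-cadherin gene CDH1 averaged 4.62 in MDA-MB-231 vehicle and 13.06 in MCF10A vehicle. Of 7 mesenchymal markers, 5 were higher in MDA-MB-231 on vehicle, where 29.2% of all genes were called higher and 26.8% lower. The other two went against the label: on vehicle the N-cadherin gene CDH2 averaged 5.21 in MDA-MB-231 and 9.68 in MCF10A, and TGFBI averaged 9.37 in MDA-MB-231 and 14.5 in MCF10A. With 2DG, 25.5% of all genes were called higher and 25.4% lower in MDA-MB-231, and 29% and 25.2% in MCF10A. Of 7 markers of blood, endothelial, fibroblast and smooth muscle cells, 3 were higher and 1 lower with 2DG in MDA-MB-231. In MCF10A 2 of these markers were higher and none lower. Their summed group means were 45.3 with 2DG and 42.3 on vehicle in MDA-MB-231, and 48.5 with 2DG and 46.0 on vehicle in MCF10A. The leukocyte marker PTPRC averaged between 3.75 and 4.17 in the 4 groups. In MDA-MB-231 the collagen gene COL3A1 averaged 6.46 with 2DG and 4.93 on vehicle, the endothelial marker PECAM1 8.22 with 2DG and 7.28 on vehicle, and COL1A1 7.83 with 2DG and 7.38 on vehicle. In MCF10A, COL1A1 averaged 11.1 with 2DG and 9.04 on vehicle, and the monocyte marker CD14 8.72 with 2DG and 8.10 on vehicle. The part of other cells in the results was not tested. The 3' minus 5' value of the actin control probe sets, a sign of RNA integrity, was 1.03 ± 0.0714 (SD, n = 4) in MDA-MB-231 2DG, 0.598 ± 0.331 in MDA-MB-231 vehicle, 0.55 ± 0.0678 in MCF10A 2DG and 0.393 ± 0.067 in MCF10A vehicle. Replicate B of MDA-MB-231 vehicle stood apart at 1.09. Every member called with 2DG in either line kept its direction and its call with that value as a covariate, and without replicate B.

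Calls were made by limma where the p, adjusted by the Benjamini-Hochberg method across the 19775 genes, was under 0.05. With 2DG in MDA-MB-231, 7 of the 10 were higher and none lower, where 25.5% of all genes were called higher and 25.4% lower (50.9% in either direction). With 2DG in MCF10A, 8 were higher and 1, CTH, was lower, where 29% of all genes were called higher and 25.2% lower (54.2% in either direction). The median change of the 10 genes was 0.80 in MDA-MB-231 and 0.89 in MCF10A, beside 0.03 and 0.02 over all genes. On their brightest probe sets PHGDH, PSAT1, PSPH, SHMT2, MTHFD2 and ASNS were called higher in both lines. Read the same way, CBS and ALDH1L2 were called in MCF10A alone and SHMT1 in neither line. With the mean of all its probe sets PSPH was not called in MCF10A. CTH was higher in MDA-MB-231 and lower in MCF10A. Its different response in the lines was known when it was chosen, so its part in these counts and medians is no test. All 10 genes and the further gene lists were chosen with earlier results of these data known. Their counts beside the shares over all genes are therefore descriptions only.

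**Figure D1:**
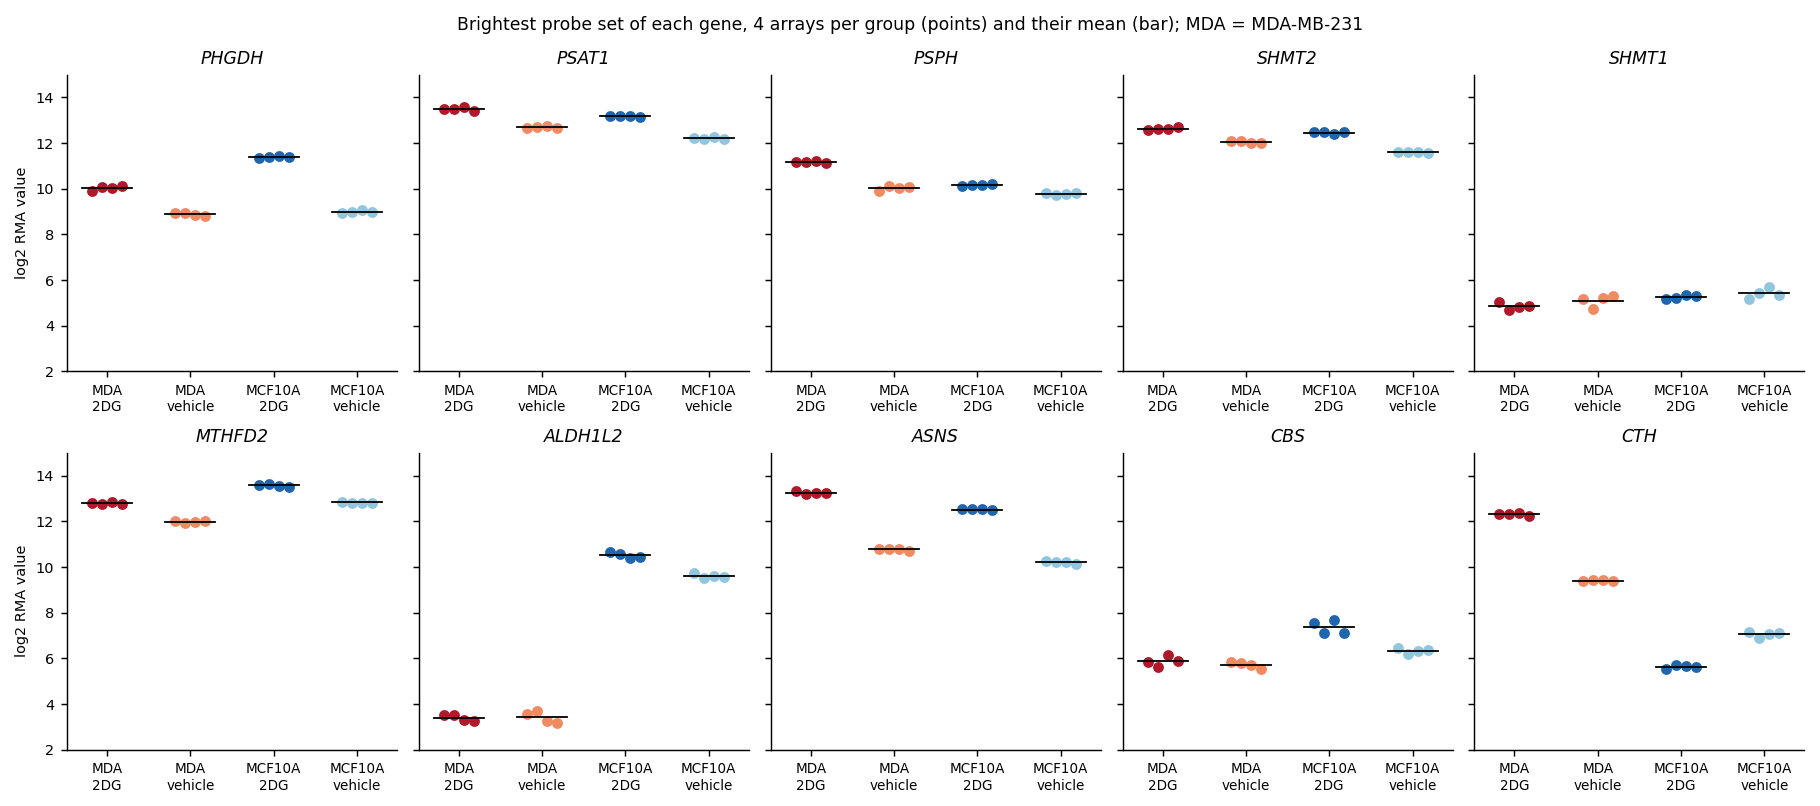
Log2 RMA values of the brightest probe set of each gene (vertical axis) on the 4 arrays of each group (points) with the group mean (bar). In CTH the MDA-MB-231 2DG arrays sit highest, between 12.24 and 12.38, and the MCF10A 2DG arrays lowest, between 5.53 and 5.70, and ALDH1L2 stays between 3.17 and 3.70 in all MDA-MB-231 arrays.

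PHGDH, which commits 3-phosphoglycerate to serine synthesis, read 9.92, 10.06, 10.02 and 10.13 in MDA-MB-231 2DG, against 8.92, 8.92, 8.87 and 8.82 in MDA-MB-231 vehicle. The MCF10A arrays read 11.35, 11.40, 11.43 and 11.38 with 2DG, against 8.94, 9.00, 9.07 and 8.96 on vehicle. No 2DG array overlapped a vehicle array of its line, and the MCF10A 2DG arrays were the highest of all 16. PHGDH rose by 1.15 ± 0.0457 in MDA-MB-231 (SE of the fit, 4 arrays per group) and by 2.40 ± 0.0457 in MCF10A, that is 2.22-fold and 5.27-fold (limma adjusted p = 2.35e-12 and 1.89e-16). The response was smaller in MDA-MB-231, with a difference of responses (MDA-MB-231 minus MCF10A) of -1.25 ± 0.0646 (adjusted p = 1.37e-10). On vehicle the lines differed by -0.11 ± 0.0457, which missed the threshold (adjusted p = 0.052) although the arrays did not overlap, and the interval of that difference ran from -0.21 to -0.01. It passed in limma when MDA-MB-231 2DG replicate A or D, MDA-MB-231 vehicle replicate B or MCF10A vehicle replicate A was left out (adjusted p = 0.0307, 0.0366, 0.0473 and 0.041). It also passed with the mean of all probe sets, trend and robust variances, without dim genes and after another quantile normalization (adjusted p = 0.0498, 0.0324, 0.0237 and 0.0199). PHGDH had no other probe set.

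PSAT1, the transaminase of the middle step, was bright throughout, at 13.41 to 13.56 in MDA-MB-231 2DG and 12.64 to 12.74 in MDA-MB-231 vehicle. Its MCF10A values were 13.14 to 13.18 with 2DG and 12.16 to 12.27 on vehicle. The groups lay in the order MDA-MB-231 2DG, MCF10A 2DG, MDA-MB-231 vehicle and MCF10A vehicle, with no overlap between neighbours. PSAT1 rose by 0.79 ± 0.0393 in MDA-MB-231 and by 0.96 ± 0.0393 in MCF10A (limma adjusted p = 3.43e-11 and 1.96e-12). The difference of responses was -0.17 ± 0.0556 (adjusted p = 0.0191), and with the mean of both probe sets it was -0.2125 (adjusted p = 0.11). Its other probe set, 220892_s_at, rose by 0.95 in MDA-MB-231 and 1.21 in MCF10A.

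PSPH, the phosphatase that releases serine, read 11.15, 11.15, 11.23 and 11.14 in MDA-MB-231 2DG, against 9.89, 10.12, 10.01 and 10.09 in MDA-MB-231 vehicle. In MCF10A the values were 10.13, 10.18, 10.18 and 10.19 with 2DG, against 9.82, 9.71, 9.78 and 9.80 on vehicle. The MDA-MB-231 2DG arrays stood alone at the top, and the other groups lay within 0.5 of each other. PSPH rose by 1.14 ± 0.0467 in MDA-MB-231 and by 0.39 ± 0.0467 in MCF10A (limma adjusted p = 3.44e-12 and 1.49e-06), with a difference of responses of 0.75 ± 0.066 (adjusted p = 7.86e-08). This order is the reverse of that of PHGDH, the first enzyme of the same route. The other probe sets of PSPH differed from this one. Probe set 205048_s_at changed by 0.46 in MDA-MB-231 and 0.435 in MCF10A, with a difference of 0.03, and the dim 244819_x_at changed by -1.145 and -1.02. The mean of all 3 probe sets rose by 0.1525 in MDA-MB-231 (adjusted p = 0.0262) and was at -0.06 in MCF10A (adjusted p = 0.351). The size and the direction of the PSPH response therefore depended on the probe set in both lines.

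**Figure D2:**
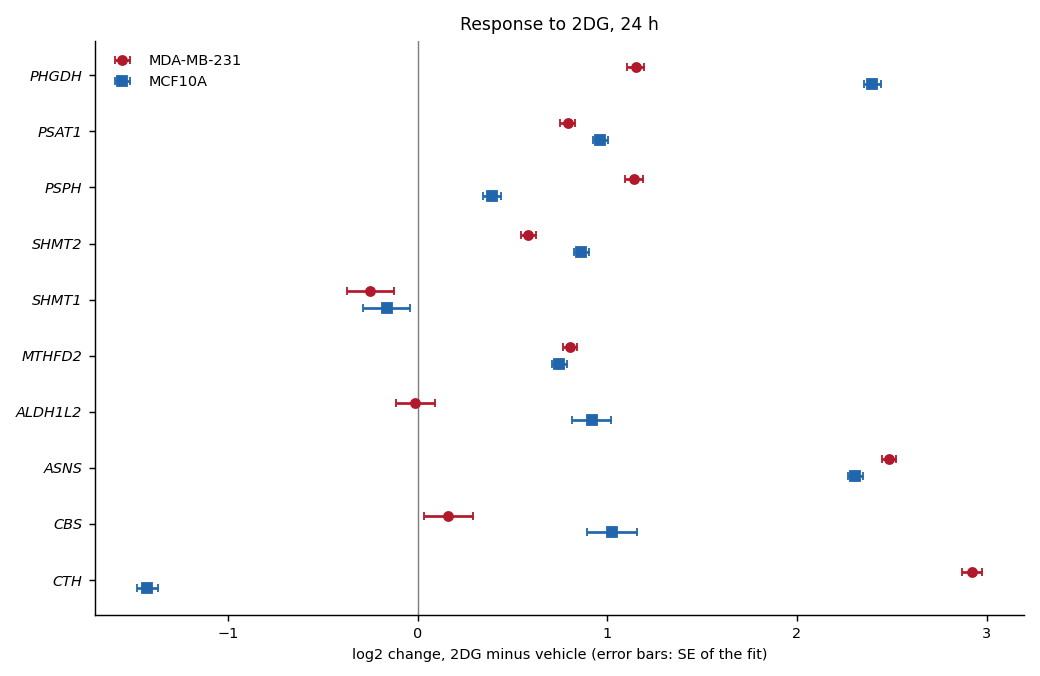
Log2 change with 2DG (horizontal axis, 2DG minus vehicle) of the 10 genes in MDA-MB-231 (circles) and MCF10A (squares), with SE bars. ASNS lies above 2 in both lines, PHGDH is further right in MCF10A, and CTH lies at 2.92 in MDA-MB-231 and -1.43 in MCF10A.

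SHMT2, the mitochondrial serine hydroxymethyltransferase, rose by 0.58 ± 0.0393 in MDA-MB-231 and by 0.86 ± 0.0393 in MCF10A (limma adjusted p = 1.61e-09 and 7.78e-12). Its arrays read 12.58 to 12.69 in MDA-MB-231 2DG, 11.99 to 12.10 in MDA-MB-231 vehicle, 12.38 to 12.50 in MCF10A 2DG and 11.55 to 11.62 in MCF10A vehicle. From high to low the order was MDA-MB-231 2DG, MCF10A 2DG, MDA-MB-231 vehicle and MCF10A vehicle, with no overlap. The difference of responses was -0.28 ± 0.0555 (adjusted p = 0.000479), and all 3 of its probe sets gave changes between 0.51 and 0.64 in MDA-MB-231 and between 0.83 and 0.965 in MCF10A.

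SHMT1, the cytosolic counterpart, was dim, between 4.67 and 5.70 on all 16 arrays, and the 2DG arrays overlapped the vehicle arrays in both lines. Its change was -0.25 ± 0.124 in MDA-MB-231 and -0.16 ± 0.124 in MCF10A (limma adjusted p = 0.11 and 0.3). Without vehicle replicate B it fell by 0.38 in MDA-MB-231 (adjusted p = 0.00696), and with the actin value as a covariate its change there was 0.000449 (adjusted p = 0.999). Its other probe set changed by 0.125 in MDA-MB-231 and 0.1275 in MCF10A. No change of SHMT1 was called in the main fit at these low levels, and a call in MDA-MB-231 depended on vehicle replicate B.

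MTHFD2, the mitochondrial dehydrogenase and cyclohydrolase of the same carbon route, read 12.74 to 12.85 in MDA-MB-231 2DG and 11.94 to 12.03 in MDA-MB-231 vehicle. MCF10A arrays gave 13.52 to 13.64 with 2DG and 12.81 to 12.85 on vehicle. The MDA-MB-231 2DG arrays thus lay at the level of untreated MCF10A, and those 2 groups overlapped. MTHFD2 rose by 0.80 ± 0.038 in MDA-MB-231 and by 0.75 ± 0.038 in MCF10A (limma adjusted p = 1.96e-11 and 3.2e-11). The difference of responses, 0.055, did not pass (adjusted p = 0.463), and its interval ran from -0.06 to 0.17. Probe set 234976_x_at, less bright, rose by 0.245 in MDA-MB-231 and 0.55 in MCF10A. There the difference of responses was -0.3075 and passed (adjusted p = 0.0156 in the limma fit over all probe sets).

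ALDH1L2, the mitochondrial formyltetrahydrofolate dehydrogenase, was far lower in MDA-MB-231 than in MCF10A. It read 3.52, 3.53, 3.31 and 3.27 in MDA-MB-231 2DG, against 3.55, 3.70, 3.26 and 3.17 in MDA-MB-231 vehicle. In MCF10A it read 10.65, 10.56, 10.41 and 10.45 with 2DG, against 9.74, 9.50, 9.61 and 9.55 on vehicle. The MDA-MB-231 values lay near the lowest value of the table, 2.38, with and without 2DG. MDA-MB-231 was lower than MCF10A with a difference of -7.11 ± 0.104 with 2DG and -6.18 ± 0.104 on vehicle (limma adjusted p = 3.48e-18 and 2.93e-17). ALDH1L2 rose by 0.92 ± 0.104 in MCF10A (adjusted p = 8.19e-07), and its change was -0.01 in MDA-MB-231 (adjusted p = 0.938). The difference of responses was -0.93 ± 0.147 (adjusted p = 5.26e-05), but at values this low a change in MDA-MB-231 is compressed. On its 2 dimmer probe sets the change was 0.17 and 0.16 in MCF10A, and 0.295 and -0.19 in MDA-MB-231. Of these only the 0.295 passed (adjusted p = 0.0488 in the limma fit over all probe sets). The difference of responses passed on neither, at 0.125 and -0.35 (adjusted p = 0.612 and 0.373 in that fit). On these probe sets the line difference on vehicle was -1.47 and -1.04. With the mean of all 3 probe sets the line difference was -3.28 with 2DG and -2.90 on vehicle, so its size rests on the brightest probe set.

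ASNS, which makes asparagine from aspartate and glutamine, read 13.35, 13.21, 13.25 and 13.24 in MDA-MB-231 2DG, against 10.79, 10.81, 10.80 and 10.71 in MDA-MB-231 vehicle. In MCF10A it read 12.54, 12.53, 12.52 and 12.48 with 2DG, against 10.25, 10.21, 10.23 and 10.15 on vehicle. The spread within each group was small beside the gap between 2DG and vehicle, and no groups overlapped. ASNS rose by 2.485 ± 0.0386 in MDA-MB-231 and by 2.31 ± 0.0386 in MCF10A, that is 5.60-fold and 4.95-fold (limma adjusted p = 1.52e-16 and 4.19e-17). The responses differed by 0.18 ± 0.0546 (adjusted p = 0.0133), a small part of either. The dim probe set 241082_at rose by 1.19 in MDA-MB-231 (adjusted p = 4.42e-10) and was at -0.02 in MCF10A, where its values lay between 3.32 and 3.55.

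RefSeq promoter windows (GRCh38.p14), from 250 bases before to 50 bases after a gene's start, were found for 7 of the 10 genes, with 10 windows in all. They were searched on both strands for TGATGNAA (the C/EBP-ATF response element, bound by ATF4), for TGACNNNGC (the core of the antioxidant response element, bound by NRF2) and for the E-box CACGTG. The first was found in 3.62% of the 35116 windows of the table, and among these 10 windows in 1 of the 2 of ASNS. It lies at positions -68 to -61, counted from the start. The second was found in 13.3% of all windows, in 1 of the 3 of CBS and in that of MTHFD2, and the third in 7.26% of all windows and in none of these 10. A match is a description of the letters only. The window of ASNS is shown because it holds this element, at chr7:97872359-97872658 on the minus strand, with the element in capitals.
ASNS: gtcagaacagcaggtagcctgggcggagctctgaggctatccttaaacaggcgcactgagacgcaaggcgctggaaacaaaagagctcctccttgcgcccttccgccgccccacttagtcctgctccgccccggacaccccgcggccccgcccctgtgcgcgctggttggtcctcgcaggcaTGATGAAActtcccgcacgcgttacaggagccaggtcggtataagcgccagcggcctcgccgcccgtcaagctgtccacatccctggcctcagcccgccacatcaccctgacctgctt

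CTH and CBS, the pair of enzymes that turn homocysteine and serine into cysteine, did not move together: with 2DG, CTH was higher in MDA-MB-231 and lower in MCF10A, while CBS was called higher in MCF10A and not called in MDA-MB-231. CTH read 12.34, 12.34, 12.38 and 12.24 in MDA-MB-231 2DG, against 9.39, 9.41, 9.42 and 9.39 in MDA-MB-231 vehicle. In MCF10A it read 5.53, 5.70, 5.68 and 5.62 with 2DG, against 7.15, 6.89, 7.07 and 7.12 on vehicle. The 4 groups were far apart, and 2DG arrays were the highest in one line and the lowest in the other. Its change was 2.92 ± 0.0543 in MDA-MB-231, that is 7.58-fold, and -1.425 ± 0.0543 in MCF10A, where it was 2.69-fold lower. The difference of responses was 4.35 ± 0.0769. These values are a description with no test, since this gene was singled out with its different response in the lines known. The MCF10A 2DG values are dim, where RMA compresses changes. With 2DG, CTH was higher in MDA-MB-231 than in MCF10A by 6.69 ± 0.0543, and on vehicle by 2.345 ± 0.0543. The other probe set, 206085_s_at, had a change of 2.98 in MDA-MB-231 and -0.58 in MCF10A. Both probe sets gave opposite signs in the lines, and their values in MCF10A differed by more than 1.5 times.

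CBS, on its brightest probe set, read 5.85, 5.62, 6.15 and 5.90 in MDA-MB-231 2DG, against 5.84, 5.79, 5.70 and 5.54 in MDA-MB-231 vehicle. In MCF10A it read 7.53, 7.13, 7.69 and 7.09 with 2DG, against 6.47, 6.19, 6.31 and 6.37 on vehicle. The MDA-MB-231 groups overlapped, and the MCF10A 2DG arrays were the highest of the 16. CBS rose by 1.02 ± 0.131 in MCF10A (limma adjusted p = 3.36e-06), and its change was 0.16 ± 0.131 in MDA-MB-231 (adjusted p = 0.339), with a difference of responses of -0.86 ± 0.185 (adjusted p = 0.000943). Probe set 212816_s_at gave a larger rise in MCF10A, 2.11 ± 0.111, and -0.14 in MDA-MB-231. Probe set 240517_at was at 0.275 in MCF10A (adjusted p = 0.0617 in the limma fit over all probe sets). The size of the CBS response thus depended on the probe set, and the dim values in MDA-MB-231 limit what change could be detected there.

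The promoter windows of this pair are shown because the genes responded in opposite directions in MCF10A. That of CTH (chr1:70411018-70411317, plus strand) holds none of the 3 motifs, and that of CBS (chr21:43076328-43076627, minus strand) holds 1 match to TGACNNNGC, on the opposite strand and in capitals, at positions -83 to -75. CBS has 2 further windows in the table, with no match.
CTH: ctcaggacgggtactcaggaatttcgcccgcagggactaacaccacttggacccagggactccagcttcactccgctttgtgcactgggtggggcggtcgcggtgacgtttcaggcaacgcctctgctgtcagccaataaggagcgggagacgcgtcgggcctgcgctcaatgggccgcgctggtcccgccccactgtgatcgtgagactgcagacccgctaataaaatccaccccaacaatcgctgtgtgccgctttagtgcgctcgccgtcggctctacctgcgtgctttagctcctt
CBS: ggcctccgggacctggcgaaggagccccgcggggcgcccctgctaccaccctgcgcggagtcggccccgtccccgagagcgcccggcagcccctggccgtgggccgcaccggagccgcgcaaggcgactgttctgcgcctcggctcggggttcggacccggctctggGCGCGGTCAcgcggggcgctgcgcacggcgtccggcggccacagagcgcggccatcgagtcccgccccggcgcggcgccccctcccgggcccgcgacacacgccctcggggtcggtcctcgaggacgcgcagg

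**Figure D3:**
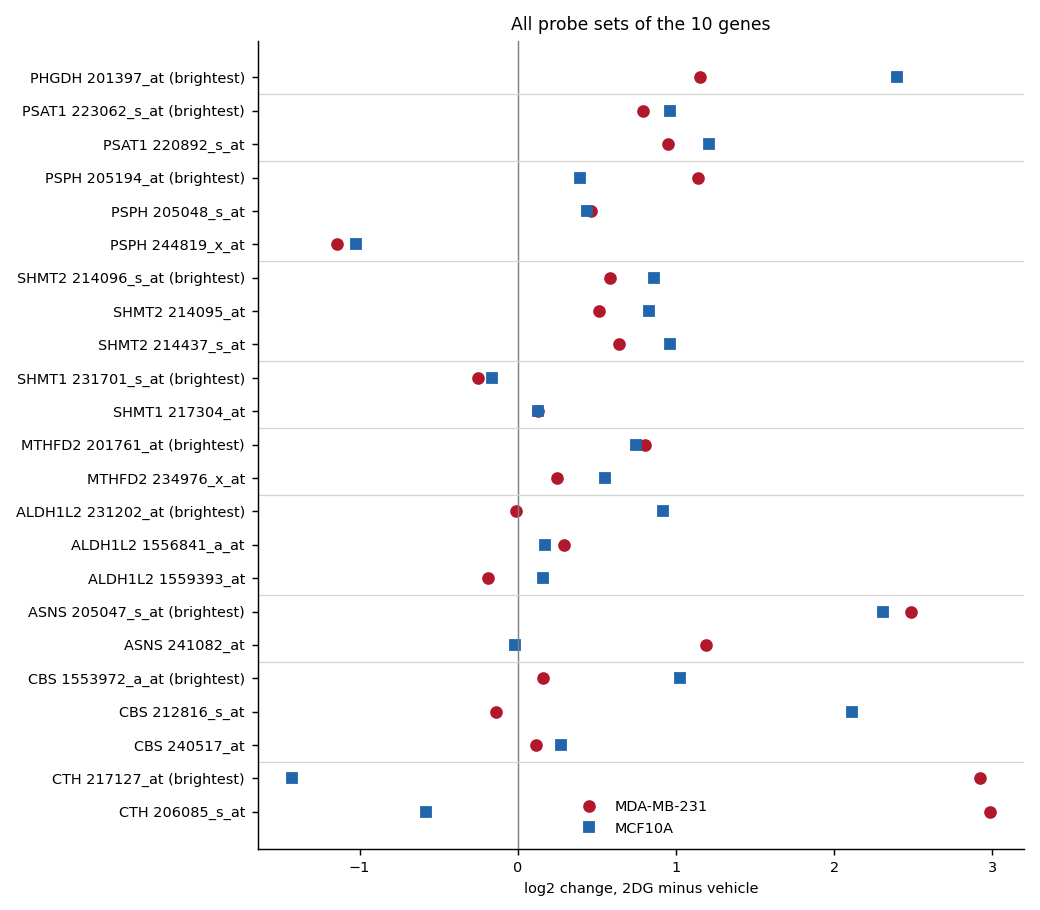
Log2 change with 2DG (horizontal axis, 2DG minus vehicle) on each of the 23 probe sets of the 10 genes (rows) in MDA-MB-231 (circles) and MCF10A (squares). Both CTH probe sets lie on opposite sides of 0 in the lines, and PSPH 244819_x_at lies left of 0 in both.

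On their brightest probe sets the responses differed between the lines for most of the 10 genes. Beside CTH, the difference was called for 7 of the other 9: higher in MDA-MB-231 for PSPH and ASNS, and lower for PHGDH, PSAT1, SHMT2, ALDH1L2 and CBS. Over all genes 22.3% were called higher and 23.6% lower in this comparison, 45.8% in all. This difference uses the same arrays as both responses. It did not pass on any other probe set of PSPH, PSAT1 or ALDH1L2, nor on CBS 240517_at. The values were 0.03 and -0.125 for PSPH, -0.255 for PSAT1 and -0.16 for that CBS probe set. Their adjusted p in the limma fit over all probe sets were 0.863, 0.6, 0.298 and 0.501. It did pass on CBS 212816_s_at, ASNS 241082_at and the other SHMT2 probe sets (adjusted p at most 0.0036 in that fit).

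On vehicle, 5 of the 10 genes were higher in MDA-MB-231 than in MCF10A and 4 lower, where 29.2% of all genes were called higher and 26.8% lower (56% in either direction). The higher genes were CTH, ASNS by 0.57, PSAT1 by 0.49, SHMT2 by 0.445 and PSPH by 0.25. The lower genes were ALDH1L2, MTHFD2 with a difference of -0.84, CBS with -0.62 and SHMT1 with -0.32. With 2DG, the same 5 were higher, where 30.7% of all genes were called higher. The other 5 were lower, where 28.8% of all genes were called lower (59.5% in either direction). PHGDH joined the lower ones, at -1.36 ± 0.0457 (limma adjusted p = 9.35e-14). CTH is in both counts of higher genes, although its different response in the lines was known when it was chosen. The SHMT1 difference on vehicle was lost without replicate B of MDA-MB-231 vehicle (adjusted p = 0.145), without replicates B and C of MCF10A vehicle in turn (adjusted p = 0.0743 and 0.138), with the arrays of these groups alone (adjusted p = 0.086), with the actin value as a covariate (adjusted p = 0.188) and without shared probe sets (adjusted p = 0.599). Under 2DG the SHMT1 difference, -0.41, was lost with that covariate (-0.13, adjusted p = 0.559) and without shared probe sets (-0.07, adjusted p = 0.568). The size and sign of the PSPH difference depended on the probe set. On vehicle it was 1.79 on 205048_s_at and -0.3125 on the dim 244819_x_at (adjusted p = 8.11e-13 and 0.0303 in the limma fit over all probe sets). Under 2DG these were 1.82 and -0.4375. Without shared probe sets (those ending in _s_at or _x_at) ASNS is read on its dim probe set, where its difference on vehicle was 0.01 (adjusted p = 0.931). The CBS difference on vehicle was not called on 212816_s_at or 240517_at. It was -0.26 and -0.205 there (adjusted p = 0.0614 and 0.164 in the limma fit over all probe sets). Under 2DG it was called on both, at -2.51 and -0.365 (adjusted p = 2.85e-12 and 0.0133 in that fit).

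**Figure D4:**
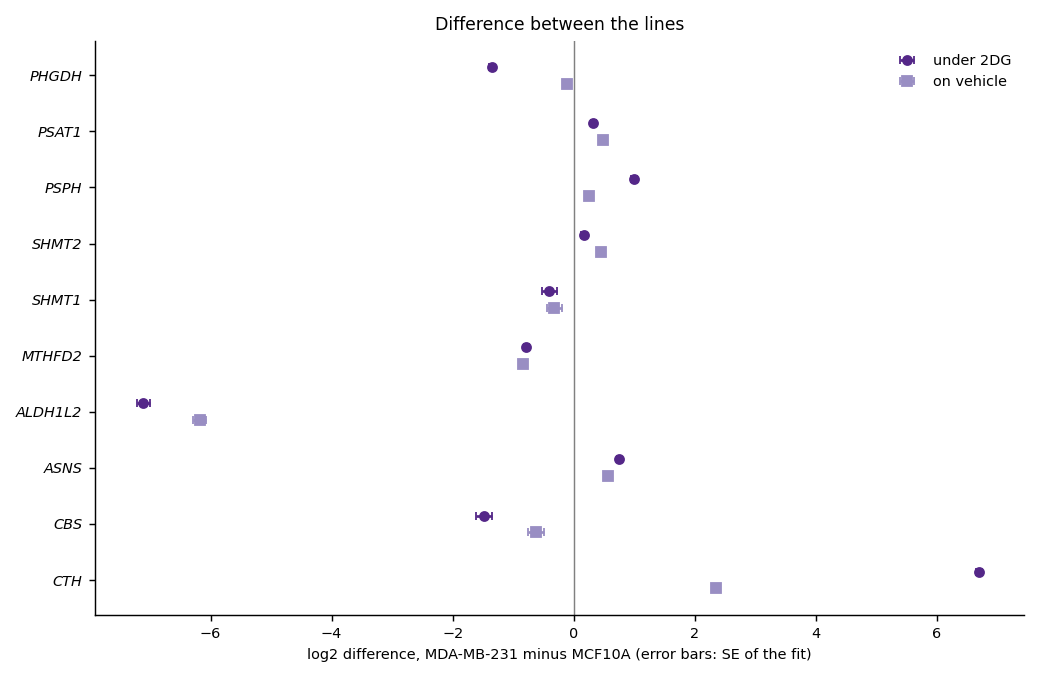
Log2 difference between the lines (horizontal axis, MDA-MB-231 minus MCF10A) of the 10 genes under 2DG (circles) and on vehicle (squares), with SE bars. CTH lies at 6.69 under 2DG and 2.345 on vehicle, PHGDH at -1.36 under 2DG and -0.11 on vehicle, and MTHFD2 at -0.785 under 2DG and -0.84 on vehicle.

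Most of the other genes of folate and one-carbon metabolism fell. Of 20 measured, 1 rose, 14 fell and 5 were not called with 2DG in MDA-MB-231 (median -0.39), where 25.4% of all genes fell. In MCF10A 3 rose, 15 fell and 2 were not called (median -0.75), where 25.2% of all genes fell. In MDA-MB-231 the glycine cleavage carrier GCSH fell by 1.665 ± 0.0414 and the thymidylate synthase TYMS fell by 1.26 ± 0.0314, while AMT, the aminomethyltransferase of glycine cleavage, rose by 0.255 ± 0.0557. In MCF10A, TYMS fell by 2.32 ± 0.0314 and the glycine decarboxylase GLDC fell by 2.265 ± 0.0984, while the proton-coupled folate transporter SLC46A1 rose by 1.39 ± 0.0638 and AMT rose by 0.74 ± 0.0557. The limma adjusted p of these changes were at most 0.000928. The members SHMT2 and MTHFD2 thus rose in the same arrays in which most of this list fell. Of the other folate members, on their brightest probe sets, ALDH1L2 was called higher in MCF10A alone and SHMT1 in neither line.

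The methionine cycle, sulfur and glutathione genes were mixed. Of 22 measured, 5 rose and 9 fell in MDA-MB-231 (median -0.02), and 10 rose and 5 fell in MCF10A (median 0.09), where 25.5% of all genes rose and 25.4% fell in MDA-MB-231 and 29% rose and 25.2% fell in MCF10A. CHAC1, which degrades glutathione and is an ATF4 target, rose by 2.61 in MDA-MB-231 and 2.375 in MCF10A. The cystine importer SLC7A11, which brings in cysteine from outside, rose by 1.89 ± 0.0487 in MDA-MB-231 and by 2.74 ± 0.0487 in MCF10A. Its response was smaller in MDA-MB-231, by a difference of -0.85 ± 0.0689 (limma adjusted p = 2.86e-08). AHCY, which releases homocysteine, fell by 0.62 and 0.94, and the sulfite oxidase SUOX fell by 0.635 and 0.71.

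Of 13 measured genes of aspartate, glutamate, proline and urea cycle metabolism, 4 rose and 5 fell in MDA-MB-231 (median 0.02), and 5 rose and 6 fell in MCF10A (median -0.12), beside the same shares over all genes. ASS1, which uses aspartate to make argininosuccinate, rose by 1.65 ± 0.101 and 2.64 ± 0.101, and the glutamine synthetase GLUL rose by 0.91 and 1.385. PYCR3, a reductase of proline synthesis, changed by -0.97 and -1.345, and ASL, which splits argininosuccinate, by -0.755 and -1.09.

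Regulators of the amino acid and endoplasmic reticulum stress responses rose in both lines. Of 13 measured, 11 rose and 2 (ATF5 and the kinase EIF2AK4) fell in each line, with a median of 1.57 in MDA-MB-231 and 1.28 in MCF10A. Over all genes 25.5% rose and 25.4% fell in MDA-MB-231, and 29% rose and 25.2% fell in MCF10A. ATF4 itself rose by 0.67 ± 0.0372 in MDA-MB-231 and 1.28 ± 0.0372 in MCF10A, with a difference of responses of -0.61 ± 0.0527 (limma adjusted p = 5.69e-08). ATF3 rose by 2.88 and 3.70, DDIT3, which encodes CHOP, by 1.625 and 3.10, and the pseudokinase TRIB3 by 1.895 and 2.02. ATF3 and DDIT3 also responded less in MDA-MB-231 (adjusted p = 4.41e-05 and 4.48e-12 in limma), whereas the difference for TRIB3 did not pass (adjusted p = 0.104). Over the 13 regulators the difference of responses was called below 0 for 6 and above 0 for 5, counting both genes that fell. The shares over all genes were 23.6% below 0 and 22.3% above 0. DDIT4, an inhibitor of mTOR signalling, rose by 1.92 in MDA-MB-231 and 0.42 in MCF10A, PPP1R15A, which reverses eIF2alpha phosphorylation, by 1.52 and 0.80, and CEBPB by 1.57 and 0.98. The smaller rise of DDIT4 in MCF10A began from a high level, 13.4 on vehicle, beside 12.7 in MDA-MB-231 with 2DG.

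**Figure D5:**
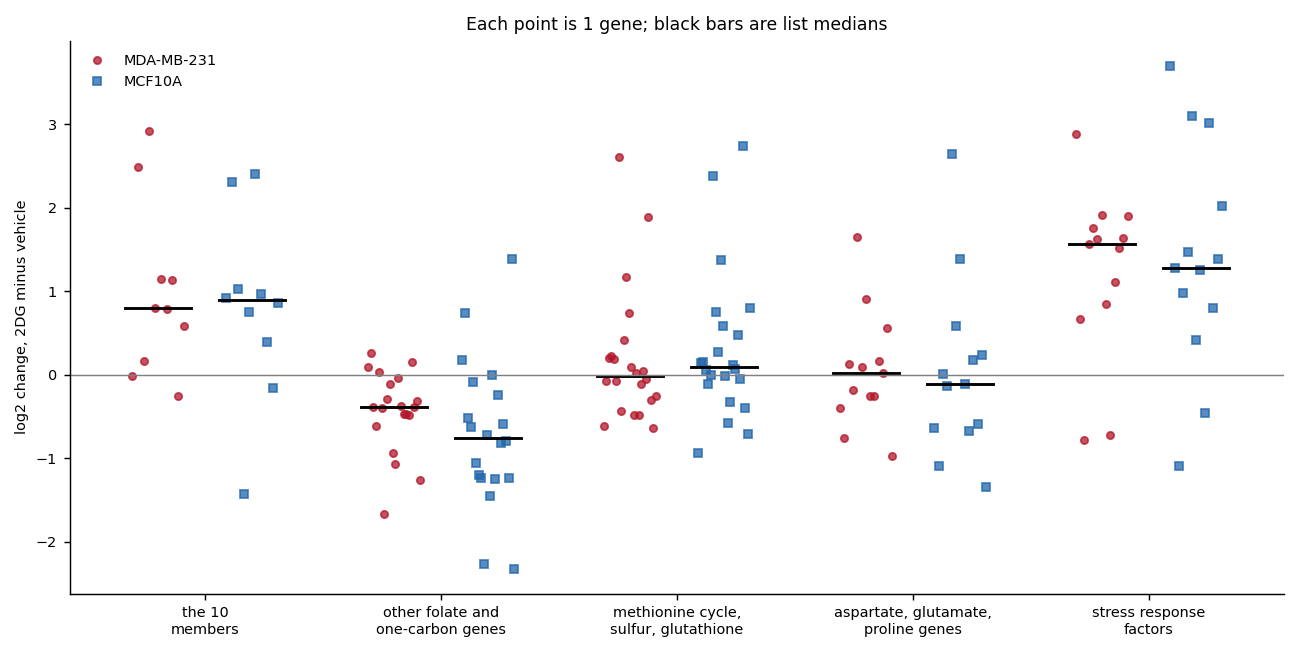
Log2 change with 2DG (vertical axis, 2DG minus vehicle) of each gene (points) in 5 gene lists, in MDA-MB-231 (circles) and MCF10A (squares), with list medians as bars. The 10 genes have medians of 0.80 and 0.89, the other folate and one-carbon genes -0.39 and -0.75.

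The genes most like CTH over the 16 arrays, by Pearson correlation with members left out, were MBNL1 (r = 0.996), E2F7 (0.996), DUSP5 (0.996), TYW3 (0.995) and RILPL2 (0.994). Their changes ran from 0.33 to 1.42 in MDA-MB-231 and from -0.955 to -0.20 in MCF10A. All were smaller in size than those of CTH. The genes most like the mean of the 10 standardized profiles were GFPT1 (r = 0.990), SH3BP5 (0.989), PNPLA8 (0.987), FOXO3 (0.987) and POLI (0.987), with changes from 0.80 to 1.20 in MDA-MB-231 and from 1.03 to 1.41 in MCF10A. The arrays form 4 groups and are not independent points, so these values describe likeness only.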

How the data were processed

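RNA of 16 samples was measured on 1-colour Affymetrix arrays, 1 per sample, after amplification and biotin labelling from the 3' end, per the labels' protocols. Values were deposited in log2 units, and the submitters' processing notes name RMA as the method of the authors. Its version, and whether all arrays were normalized together, are not given in the sources used here. Of 54675 probe sets 62 were controls. Values ran from 2.38 to 15.15, and array medians lay between 6.17 and 6.22. RMA carries no call against background and compresses small signals. The number of arrays limits the precision. Within a group, arrays correlated at 0.996 to 0.998 and at most 3.58% of values were identical.

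Gene names came from the platform annotation in GEO: 41091 probe sets had 1 gene and were used, 1801 had several genes, and 11721 were not listed. Symbols looked up by Entrez number in RefSeq (GRCh38.p14) matched for 41037, and none changed. The arrays name no build, so coordinates belong to the RefSeq promoters alone. PSPH, PSAT1 and MTHFD2 have near-identical pseudogenes, and sets ending in _x_at or _s_at may match other transcripts.

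The linear model of limma 3.58.1 (R 4.3.3, with eBayes) had 4 group means over all 16 arrays, with 12 residual degrees of freedom, and tested two-sided in 5 comparisons. No filter was applied. The SE is that of the moderated fit, and intervals are 95% by the t distribution with these degrees of freedom. The procedure was tested on simulated data. Alternatives were other probe set rules, variance models, normalization, filter on dim genes, the actin value as a covariate, the replicate letter as a block, fewer arrays in the fit and each array left out. The named genes were all 10 members, the 2 largest called rises and falls of each other pathway list and line, ATF4, ATF3, DDIT3 and TRIB3, and the 5 genes most like CTH and like the members' mean. Genes named outside this rule were named after their values were seen. The members and lists were chosen with earlier results of these data known. Several genes of the lists had no probe set of their own and were not analysed here. Same-letter arrays of a line did not deviate together (correlations from -0.0992 to 0.0877 over 8 pairs), so the letters were not treated as pairs.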

Additional observations from a re-analysis of the deposited data

Results flagged for a closer look

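Beside CTH, whose difference was known when it was chosen, the response to 2DG differed between the lines for 7 of the other 9 genes, where 45.8% of all genes were called. The difference of log2 changes (MDA-MB-231 minus MCF10A) was 4.35 for CTH, 0.75 for PSPH and 0.18 for ASNS. It was -1.25 for PHGDH, -0.93 for ALDH1L2, -0.86 for CBS, -0.28 for SHMT2 and -0.17 for PSAT1. For CTH all MDA-MB-231 2DG arrays lay above, and all MCF10A 2DG arrays below, the vehicle arrays of their line, and the difference is given without a test. For the others the difference was past the limma threshold on the brightest probe set, as given above. For PSPH, PSAT1, ALDH1L2 and CBS it did not pass on every probe set.

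Among 40 sets of 4 arrays (10 genes in 4 groups), 2 held an array far from the other 3 by Dixon's rule, and chance flags about 5% of such sets. PSPH read 11.23 in MDA-MB-231 2DG replicate C, where the other 3 arrays lay between 11.14 and 11.15. PSPH read 10.13 in MCF10A 2DG replicate A, where the other 3 lay between 10.18 and 10.19. Both gaps are small beside the changes of PSPH.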

How the results depend on the processing

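Of 1170 values of the 10 genes under an alternative setting, 1148 kept their direction and side of the threshold, or stayed uncalled. Another 11 lost their call, 9 gained one and 2 called values changed sign. Of the 1148, 792 came from leaving out 1 array. An array outside the compared groups alters the SE only and cannot move the change. The replicate block also leaves each change as it was. The share of values kept is thus in part fixed by these settings. The sign changes were PSPH in MCF10A with the mean of all probe sets (-0.0642, adjusted p = 0.351 in limma) and ASNS in MCF10A without shared probe sets (-0.0175, adjusted p = 0.875). The first mean takes in the dim 244819_x_at, and the second setting leaves ASNS with its dim probe set 241082_at. Without dim genes fewer members are tested: 3 of 6 measured members beside CTH had a lower response in MDA-MB-231, and 2 of 7 members were lower in MDA-MB-231 than in MCF10A both with 2DG and on vehicle. Without shared probe sets 3 of 9 measured members were higher in MDA-MB-231 on vehicle. Leaving out 1 array at a time gave 0 to 1 members lower with 2DG in MDA-MB-231, where SHMT1 was called without vehicle replicate B, and 3 to 5 members lower in MDA-MB-231 on vehicle. The SHMT2 difference between the lines under 2DG was 0.132 (adjusted p = 0.0708) with the actin value as a covariate. With the replicate block 7 members rose in MDA-MB-231 and 8 in MCF10A, the called genes were 9941 and 10653, and no call of a member changed. Over all genes in the main fit, 23.6% had a lower response in MDA-MB-231. In that fit 28.8% were lower in MDA-MB-231 than in MCF10A with 2DG, and 26.8% lower and 29.2% higher on vehicle. With 2DG 25.5% rose and 25.4% fell in MDA-MB-231, and 29% rose in MCF10A. Shares by direction are not given for the other settings, so these member counts are descriptions only. Dim values (SHMT1, ALDH1L2 and CBS in MDA-MB-231, and CTH in MCF10A with 2DG) limit what changes can be seen.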

Other observations

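A pair of genes of the folate list, named after their values were seen, responded differently in the lines on their brightest probe sets. GLDC, the decarboxylase of glycine cleavage, had a change of -0.11 ± 0.0984 with 2DG in MDA-MB-231 (limma adjusted p = 0.396) and fell by 2.265 ± 0.0984 in MCF10A, a difference of responses of 2.155 ± 0.139 (adjusted p = 1.88e-09). GLDC averaged 6.14 in MDA-MB-231 vehicle, and in MCF10A 8.56 on vehicle and 6.29 with 2DG. Its low level in MDA-MB-231 before 2DG limits what fall could be detected there. SLC46A1 fell by 0.31 ± 0.0638 in MDA-MB-231 and rose by 1.39 ± 0.0638 in MCF10A, a difference of -1.70 ± 0.0903 (adjusted p = 1.87e-10).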
